A study of Homo sapiens with 30 samples.

Results

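The response to a SETDB1 hairpin was compared between HCT116 and SW480, a pair of established human colorectal cancer lines. The response of a line is the level in its 6 shSETDB1 libraries, 3 from the fraction labelled KRTnega and 3 from the fraction labelled KRTplus, relative to its 3 unsorted libraries. These 18 libraries of the 30 in the series were chosen by line and group label, and every gene that passed the filter on low counts was compared, 14851 of 24462 symbols. The study asked what lowering SETDB1 does in colorectal cancer cells, and the comparison here asks which changes the lines share and which differ between them.

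The groups were HCT116 shSETDB1 cells against HCT116 unsorted cells, and SW480 shSETDB1 cells against SW480 unsorted cells. The protocol given for the whole series has cells transduced with retrovirus and kept in puromycin, 2 µg/ml for 3 days and 1 µg/ml from then on, with troglitazone (10 uM), a PPARG agonist, and 1α,25-Dihydroxyvitamin D3 (25 nM), the VDR agonist, added from day 3 as the differentiation medium. The labels do not say which vector, if any, the unsorted cells carried, whether either arm of these lines grew in that medium, on what protein the fractions were sorted, or whether the replicates were separate cultures. Hairpin, sorting and any difference in medium therefore cannot be told apart in what follows, and a p-value measures the spread between these libraries, which may be technical. As background, HCT116 is a mismatch-repair-deficient line with wild-type p53 and an activating beta-catenin mutation, and SW480 is a mismatch-proficient line with mutant p53 and truncated APC.

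SETDB1 is a histone methyltransferase that places methyl groups on lysine 9 of histone H3. KRAB zinc finger proteins bring it to DNA through TRIM28, and it is best known for keeping endogenous retroviruses and germline genes silent. In intestinal epithelium, cells leave the crypt, stop dividing and take on absorptive or secretory features, and KRT20 marks the differentiated end of that path.

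Levels are CPM, the counts of a gene scaled to a common library size with TMM factors. In the sentences below, 3 values for shSETDB1 are the lowest, the median and the highest of 6 libraries, and 3 values for unsorted are replicates 1, 2 and 3. The 6 libraries hold both fractions, and where the fractions differ the median can lie between them. A log2 fold change (shSETDB1 over unsorted) is the fitted value of 1 edgeR quasi-likelihood model of all 18 libraries, given ± SE, and a gene is called at a Benjamini-Hochberg adjusted p below 0.05 over the 14851 genes. The difference is the HCT116 response minus the SW480 response, tested as an interaction in the same model, so a positive value means a higher response in HCT116.

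SETDB1 (chr1:150926263-150964744, GRCh38) itself was low in most shSETDB1 libraries but not in all. In HCT116 its level was 0, 5.63 and 2.88 CPM in KRTnega replicates 1 to 3 and 2.11, 19.4 and 30.4 CPM in KRTplus replicates 1 to 3, against 71, 69.4 and 16.3 CPM in unsorted cells. In SW480 it was 37.8, 0.227 and 3.25 CPM in KRTnega and 0, 0 and 12.3 CPM in KRTplus, against 36.9, 36.3 and 15.3 CPM in unsorted cells. HCT116 KRTplus replicates 2 and 3 and SW480 KRTnega replicate 1 lay above the lowest unsorted library of their line, so the arms overlapped in both lines. By that measure alone these 3 libraries are said below to go against their label. The lowest unsorted library was replicate 3 in each line, well below replicates 1 and 2. HCT116 KRTplus replicates 2 and 3 lay below unsorted replicates 1 and 2, and only SW480 KRTnega replicate 1 lay above every unsorted library of its line. On the log2(CPM + 1) scale the mean of the shSETDB1 libraries was 2.61 and that of the unsorted libraries 5.47 in HCT116, and 1.90 and 4.83 in SW480. The differences were -2.87 (exact permutation test, two-sided, p = 0.0714) and -2.93 (exact permutation test, two-sided, p = 0.0952), where 6 against 3 libraries can give no p below 0.0119. In the joint edgeR model the change was -2.37 ± 1.46 in HCT116 and -1.72 ± 1.46 in SW480, with adjusted p of 0.47 and 0.66. Without SW480 KRTnega replicate 1 the SW480 difference was -3.61 (exact permutation p = 0.0357). That library had the highest SETDB1 level in SW480, so leaving it out favours a larger difference and this p is no independent support.

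KRT20 did not separate the fractions in HCT116 and did in SW480. In HCT116, KRTplus replicate 3 had 5.68 CPM and the other 5 shSETDB1 libraries 0, against 0.159, 0.141 and 0.826 CPM in unsorted cells. SW480 KRTplus libraries had 75.8, 54.2 and 45.1 CPM and KRTnega libraries 0, 0.680 and 0 CPM, against 0 CPM in each unsorted library. KRT20 was called in neither response, with adjusted p of 0.88 in HCT116 and 0.12 in SW480.

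**Figure D1:**
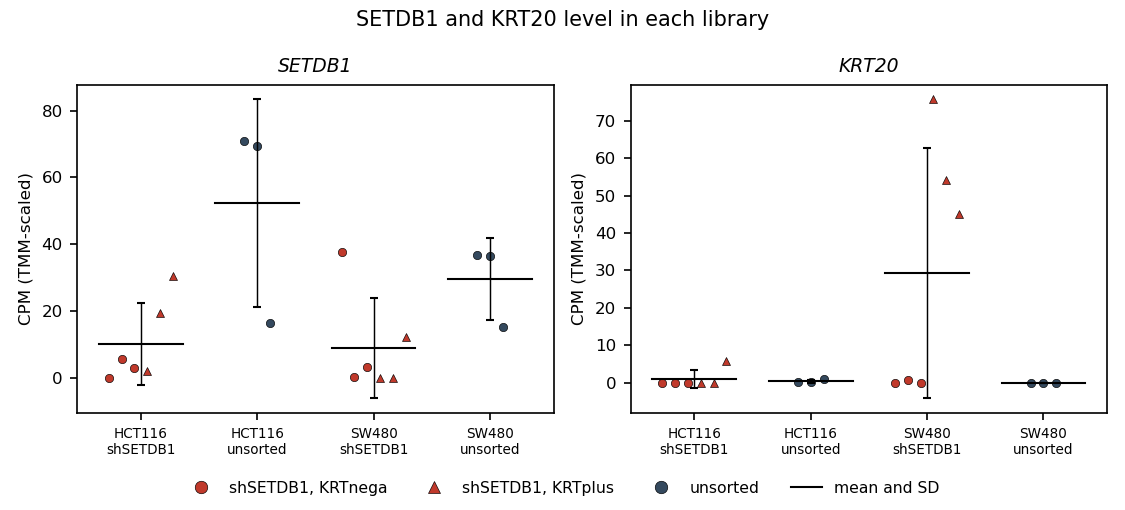
CPM of SETDB1 (left) and KRT20 (right) in each of the 18 libraries by line and arm, circles for KRTnega and unsorted, triangles for KRTplus, with mean and SD as lines. In 3 shSETDB1 libraries SETDB1 lies above the lowest unsorted library of the line, replicate 3 in each line. KRT20 is at 45.1 CPM or more in the 3 SW480 KRTplus libraries and at 5.68 CPM or less in the other 15.

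Library totals ran from 8024326 to 10221854 counts in HCT116 shSETDB1 and from 5349737 to 7130812 in HCT116 unsorted cells, and from 8655609 to 10036179 in SW480 shSETDB1 and from 6915326 to 9162875 in SW480 unsorted cells. The 14 colorectal epithelium markers summed to 1946 to 2755 CPM in HCT116 shSETDB1 against 1395 to 2126 CPM in unsorted cells, and to 2959 to 4605 CPM in SW480 shSETDB1 against 3888 to 4824 CPM in unsorted cells. Of these markers, 4 were at 0 in all HCT116 libraries (VIL1, CDX1, CDH17 and GPA33) and 2 in all SW480 libraries (CDX1 and LGALS4). The 14 leukocyte markers summed to 23.9 to 65.5 CPM in HCT116 shSETDB1 against 8.47 to 35.9 CPM in unsorted cells, and to 14.1 to 60.8 CPM in SW480 shSETDB1 against 7.10 to 16.1 CPM in unsorted cells, with CD3D and MS4A1 at 0 throughout. The 13 fibroblast and endothelial markers summed to 61.8 to 108 CPM in HCT116 shSETDB1 against 37.4 to 59.8 CPM, and to 0.651 to 51.0 CPM in SW480 shSETDB1 against 13.5 to 94.3 CPM. None of the tested leukocyte (9) or fibroblast and endothelial (8) markers was called in either line, and their part in the results was not tested. Libraries also fell into classes by their trend of expression with transcript GC content, and each class held the same share of both arms within a line.

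More genes were called in HCT116 than in SW480. In HCT116, 812 genes were called (5.47% of those tested), 345 higher (2.32%) and 467 lower (3.14%). In SW480, 390 were called (2.63%), 229 higher (1.54%) and 161 lower (1.08%). With library totals in place of TMM factors the HCT116 split was 437 higher and 372 lower, the median log2 fold change over all genes being 0.21 in place of 0.09, and each of the 812 calls kept its direction. The median size of a called change was 1.47 in HCT116 and 1.67 in SW480 on the log2 scale. Unsorted libraries weighed on these counts: without HCT116 unsorted replicate 1, 2 or 3 the HCT116 count was 476, 417 or 519, and without SW480 unsorted replicate 1, 2 or 3 the SW480 count was 166, 186 or 156. Without the 3 libraries that SETDB1 sets against their label, the counts were 483 and 316.

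The responses of the lines were weakly alike across genes. Over the 14851 genes, which are not independent replicates, the Spearman coefficient of the log2 fold changes was 0.24 and Pearson's r 0.18, and 59.1% of genes had the same sign in both lines. The lines share no library. Among the 812 genes called in HCT116, 80.9% had the same sign in SW480, and among the 390 called in SW480, 80.5% had the same sign in HCT116, against 57.5% of the 13781 genes called in neither. Called in both lines in the same direction were 124 genes (0.835% of those tested), 63 higher and 61 lower, which are 15.3% of the HCT116 calls and 31.8% of the SW480 calls. Another 8 genes were called in both lines in opposite directions, namely NEAT1, GNG11, FSCN1, ATP13A3, GGH, TINAGL1, NR2F1 and PSAT1. These numbered 3, 2 or 1 without SW480 unsorted replicate 1, 2 or 3, 4 or 5 without HCT116 unsorted replicate 1 or 3, 5 without SW480 KRTnega replicate 2, and 19 with DESeq2. By a count that needs no model, all 6 shSETDB1 libraries lay outside the range of the 3 unsorted libraries for 1900 genes in HCT116 (12.8%, with 5.89% higher and 6.9% lower) and 1326 in SW480 (8.93%, with 4.09% higher and 4.84% lower), and for 368 genes in the same direction in both (2.48%), 145 higher and 223 lower, against 35 in opposite directions. Without SW480 unsorted replicate 1, 2 or 3 the genes called in the same direction in both lines numbered 51, 52 or 56, and without HCT116 unsorted replicate 2 they numbered 71.

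**Figure D2:**
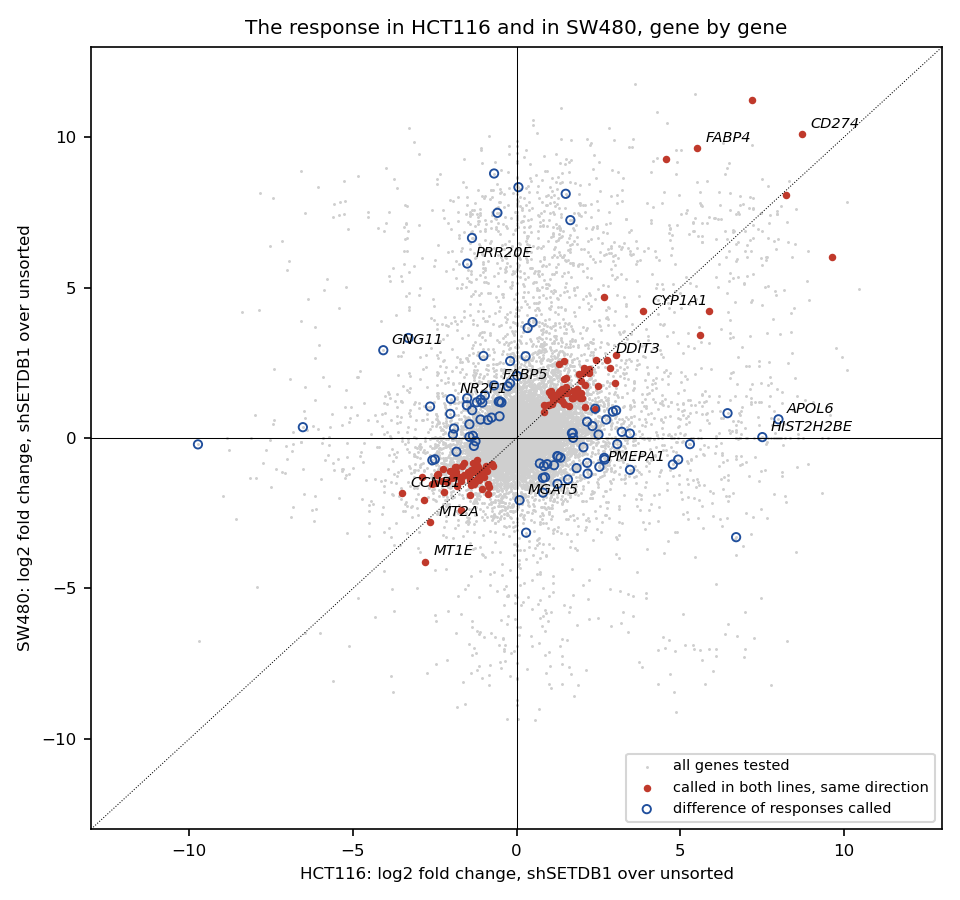
Log2 fold change, shSETDB1 over unsorted, in HCT116 (horizontal axis) and SW480 (vertical axis) for each of the 14851 genes tested (grey), with the 124 genes called in the same direction in both lines in red, the 89 genes whose difference was called ringed in blue and a dotted line of equal response. The red points lie along the dotted line in the upper right and lower left, and most rings lie in the other quadrants or beside an axis.

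The genes higher in both lines included the stress gene DDIT3, the lipid-binding FABP4 and the drug-metabolising CYP1A1. The 10 with the smallest larger adjusted p were DDIT3, RIOK3, RHOF, FABP4, IRS2, B4GALT1, AGPAT2, CYP1A1, GPCPD1 and WSB1, and all 10 kept both calls in each of the 29 other ways of processing. DDIT3, the transcription factor CHOP of the unfolded protein response, had 125, 169 and 222 CPM in HCT116 shSETDB1 cells against 28.7, 20 and 27.9 CPM in unsorted cells. In SW480 it had 92, 144 and 174 CPM in shSETDB1 cells against 29.9, 15.6 and 22 CPM in unsorted cells. The arms did not overlap in either line, and the responses were 2.77 ± 0.33 (adjusted p = 6.4e-06, edgeR) and 2.61 ± 0.33 (adjusted p = 3.7e-05).

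FABP4, the fatty acid binding protein of adipocytes and a PPARG target, had 0.913, 12.7 and 29.2 CPM in HCT116 shSETDB1 cells against 0.159, 0.422 and 0.413 CPM in unsorted cells. In SW480 it had 191, 218 and 365 CPM in shSETDB1 cells against 0, 0.71 and 0.111 CPM in unsorted cells. It was near 0 in all 6 unsorted libraries and above them in all 12 shSETDB1 libraries, by 47.5-fold and 876-fold as ratios of means. HCT116 KRTplus replicate 3, at 0.913 CPM, was the lowest of the shSETDB1 libraries. The fitted responses were 5.52 and 9.63, and their difference of -4.11 ± 1.48 was not called (adjusted p = 0.25). CYP1A1, the cytochrome P450 induced through the aryl hydrocarbon receptor, had 19, 37.3 and 63.9 CPM in HCT116 shSETDB1 cells against 4.78, 0 and 3.1 CPM, and 57.4, 75.2 and 108 CPM in SW480 shSETDB1 cells against 2.31, 5.44 and 4.98 CPM. The arms did not overlap in either line, and the responses were 3.85 ± 0.73 and 4.21 ± 0.73.

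Other leading shared genes moved by smaller and closely matched amounts. AGPAT2, an acyltransferase of glycerolipid synthesis, changed by 1.54 ± 0.25 in HCT116 and 1.50 ± 0.24 in SW480. IRS2, an adaptor of insulin signalling, changed by 1.44 ± 0.25 and 1.97 ± 0.25, and B4GALT1, a Golgi galactosyltransferase, by 1.51 ± 0.27 and 1.69 ± 0.27. GPCPD1, which cleaves glycerophosphocholine, changed by 2.10 ± 0.31 and 1.77 ± 0.31. RHOF, a small GTPase of filopodia, changed by 2.02 ± 0.32 and 2.17 ± 0.32. RIOK3, an atypical kinase, changed by 2.05 ± 0.30 and 2.32 ± 0.31, and WSB1, a substrate receptor of a ubiquitin ligase, by 1.96 ± 0.33 and 1.88 ± 0.33. In each of these 7 genes all 12 shSETDB1 libraries lay above the unsorted libraries of their line, and the responses of the lines differed by less than 2 times the SE of the difference.

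CD274, the immune checkpoint ligand PD-L1, was close to absent from unsorted cells of both lines. It had 14.3, 24.8 and 71.8 CPM in HCT116 shSETDB1 cells against 0, 0 and 0.207 CPM in unsorted cells, where 1 read was counted in all. It had 0, 16.4 and 31.5 CPM in SW480 shSETDB1 cells, 1 of the 6 libraries being at 0, and no read in the unsorted ones. The level was at least 128-fold higher in SW480 shSETDB1 cells (a bound from 3 counts over the unsorted group), and the pooled ratio in HCT116 was 559 (100.3 to 22068) with its 95% counting interval. Both calls were lost with KRTplus libraries alone.

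The genes lower in both lines included the metallothioneins MT2A and MT1E and, of the replication list, FEN1, MCM3 and TYMS. The 10 named by the rule were MT2A, MARCKSL1, NASP, PRR11, U2AF1, FEN1, TACC3, MCM3, MT1E and TYMS. Of these, 9 kept both calls in each of the 29 alternatives, and TYMS lost its SW480 call without SW480 unsorted replicate 3. MT2A (chr16:56608199-56609497, GRCh38), a cysteine-rich protein that binds zinc and copper, had 233, 377 and 592 CPM in HCT116 shSETDB1 cells against 1983, 2264 and 3140.0 CPM in unsorted cells. In SW480 it had 98.4, 174 and 293 CPM against 1365, 1135 and 1257 CPM. Every shSETDB1 library lay below every unsorted one, and the levels fell by 6.21-fold and 6.99-fold as ratios of means (adjusted p = 2.5e-06 and 3.5e-06, edgeR). MT1E, a related metallothionein whose 3′ tags may be shared with its near copies, had 84.9, 141 and 195 CPM in HCT116 shSETDB1 cells against 874, 739.8 and 1269 CPM, and 1.34, 12.9 and 45.4 CPM in SW480 shSETDB1 cells against 275, 264 and 358 CPM. Its fall was 6.91-fold in HCT116 and 17.2-fold in SW480 as ratios of means, and the difference of the fitted responses, 1.32 ± 0.81, was not called (adjusted p = 0.61).

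Among the shared genes of the cell cycle, MCM3, a subunit of the replicative helicase, had 82.4, 108 and 133 CPM in HCT116 shSETDB1 cells against 258, 309 and 334 CPM, and 110.1, 118 and 146 CPM in SW480 shSETDB1 cells against 246, 308 and 243 CPM. The arms did not overlap, and the fall was 2.83-fold and 2.17-fold. TYMS, thymidylate synthase, had 32.7, 48.6 and 51.4 CPM in HCT116 shSETDB1 cells against 208, 159.7 and 241 CPM, and 31.5, 74.4 and 90.5 CPM in SW480 shSETDB1 cells against 161, 179.9 and 222 CPM. CCNB1, the cyclin that drives entry into mitosis, had 10.3, 15.4 and 33.3 CPM against 251, 209 and 143 CPM in HCT116, and 14, 32.2 and 61.8 CPM against 74.1, 181 and 113 CPM in SW480. It fell by 11.4-fold in HCT116 and 3.57-fold in SW480, and its SW480 call was lost without SW480 unsorted replicate 2 and with KRTplus libraries alone. PRR11, a cell cycle gene, changed by -2.59 ± 0.24 and -1.53 ± 0.24. TACC3, a spindle protein, changed by -2.28 ± 0.26 and -1.43 ± 0.26, FEN1, the nuclease that trims Okazaki fragments, by -1.44 ± 0.22 and -1.27 ± 0.22, and NASP, a histone chaperone, by -1.74 ± 0.20 and -1.29 ± 0.20. U2AF1, a splicing factor that reads the end of introns, changed by -1.62 ± 0.21 and -1.22 ± 0.21, and MARCKSL1, an actin-binding substrate of protein kinase C, by -1.71 ± 0.29 and -2.41 ± 0.30.

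**Figure D3:**
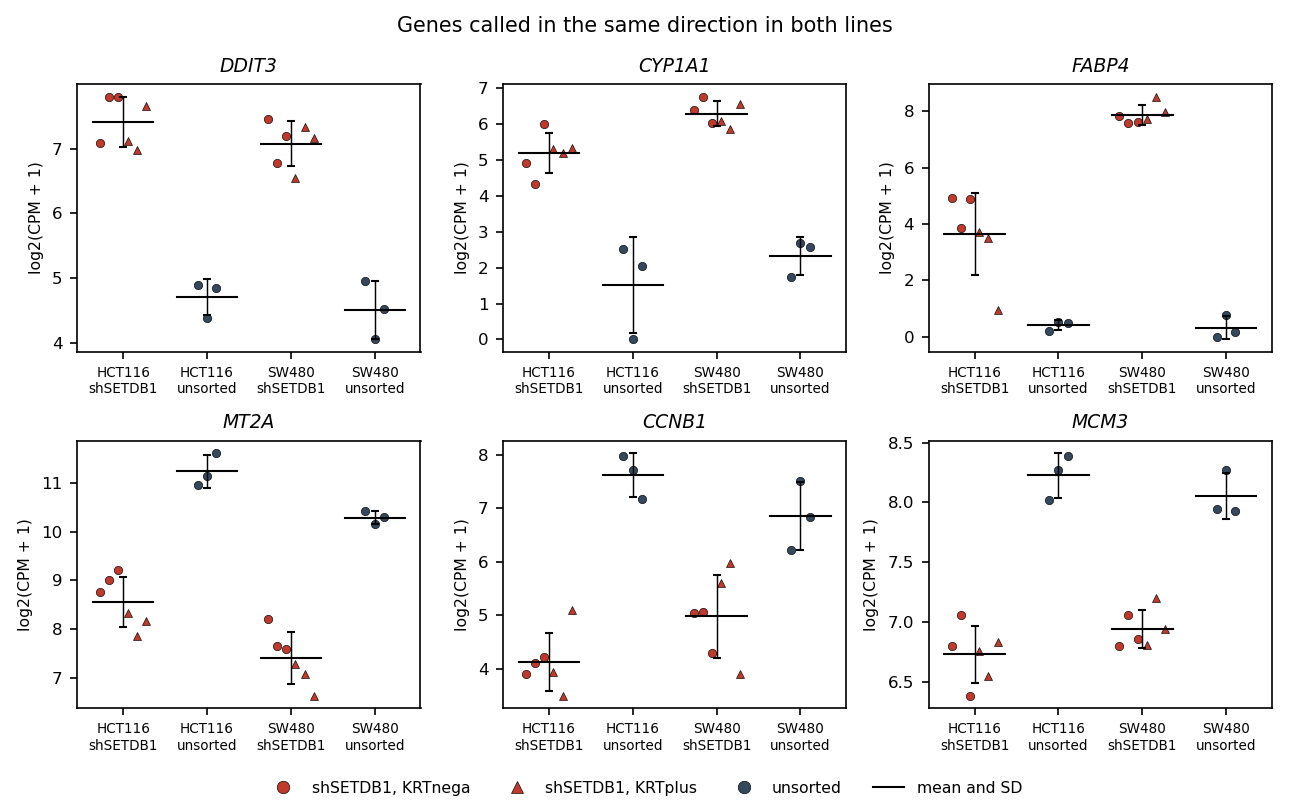
Level in each library, as log2(CPM + 1), of 3 genes higher in both lines (DDIT3, CYP1A1 and FABP4) and 3 lower in both (MT2A, CCNB1 and MCM3), by line and arm, circles for KRTnega and unsorted, triangles for KRTplus, with mean and SD as lines. In all 6 panels the shSETDB1 libraries of a line do not overlap its unsorted libraries.

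Promoters of the genes that moved together in both lines are shown for their motifs, with matches in capitals. They are the 250 bases before the annotated start in RefSeq on GRCh38.p14, found for 48 of the 61 genes called lower and 34 of the 63 called higher. A gene counts as found only where a single promoter was listed for it, while the set of all promoters keeps every one. The E2F site TTTCCCGC, searched on both strands, was in 6 of the 48 (12.5%), in 5.88% of the 34, in 2.19% of the 8169 promoters of tested genes and in 1.39% of all 35116 promoters of the table. The 6 genes were MCM3, TYMS, WHSC1, TRA2B, HELLS and SIVA1. The metal response element in the form TGCGCNC was in 43.8% of the 48, 27.3% of the promoters of tested genes and 16.8% of all promoters, and the cell cycle homology region TTTGAA in 16.7%, 8.02% and 13.3%. Other forms of the metal response element were not searched, so they are neither counted nor marked in the MT2A sequence. TTTGAA was also in 34.8% of the 23 promoters found for the 47 genes with a lower response in HCT116. Other motifs searched were the CCAAT box, in 47.9% of the 48 and 36.1% of the promoters of tested genes, and the interferon-stimulated response element (2.08% and 2.41%). The amino acid response element TGATGNAA was in 0 of the 34 and in 1.2% of the promoters of tested genes. A match describes these letters only.
MCM3 (chr6:52284743-52284992, minus strand, E2F site): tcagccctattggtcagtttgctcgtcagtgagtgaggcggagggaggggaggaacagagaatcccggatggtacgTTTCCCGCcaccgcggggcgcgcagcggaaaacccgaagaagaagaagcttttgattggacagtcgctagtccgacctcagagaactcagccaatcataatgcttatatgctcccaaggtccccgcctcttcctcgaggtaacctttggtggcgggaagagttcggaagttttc
TYMS (chr18:657403-657652, plus strand, E2F site on the other strand): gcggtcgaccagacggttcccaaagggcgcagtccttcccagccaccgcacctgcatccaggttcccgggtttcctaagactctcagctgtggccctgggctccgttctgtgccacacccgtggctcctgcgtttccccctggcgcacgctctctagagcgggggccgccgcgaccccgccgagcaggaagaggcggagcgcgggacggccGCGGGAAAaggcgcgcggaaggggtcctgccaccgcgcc
TOP2A (chr17:40417897-40418146, minus strand, cell cycle homology region, once on each strand): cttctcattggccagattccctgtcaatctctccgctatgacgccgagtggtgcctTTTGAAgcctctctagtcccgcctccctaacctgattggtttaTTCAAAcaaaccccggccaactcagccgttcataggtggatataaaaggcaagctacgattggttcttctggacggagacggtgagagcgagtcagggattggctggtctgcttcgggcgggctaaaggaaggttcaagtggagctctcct
MT2A (chr16:56608334-56608583, plus strand, metal response element, 2 matches): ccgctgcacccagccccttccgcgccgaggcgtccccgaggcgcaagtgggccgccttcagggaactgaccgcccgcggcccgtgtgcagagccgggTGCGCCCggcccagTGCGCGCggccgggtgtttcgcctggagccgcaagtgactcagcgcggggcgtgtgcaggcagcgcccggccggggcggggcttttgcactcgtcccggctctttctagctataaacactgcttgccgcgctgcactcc

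The difference between the responses was called for 89 genes (0.599% of those tested), 42 with a higher response in HCT116 (0.283%) and 47 with a lower one (0.316%). With library totals in place of TMM factors the split was 69 and 48. Of the 89, 59 were also called in HCT116, 34 in SW480, 9 in both and 5 in neither, and in 61 the fitted changes had opposite signs. Of the 680 genes called in HCT116 and not in SW480, 50 had a called difference, and of the 258 called in SW480 and not in HCT116, 25 did, so for the others the responses were not shown to differ. Without HCT116 unsorted replicate 1, 2 or 3 the count was 57, 41 or 68, and without SW480 unsorted replicate 1, 2 or 3 it was 54, 50 or 51. Without the 3 libraries set against their label by SETDB1 it was 53.

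Leading the genes with a higher response in HCT116 were PMEPA1, APOL6, NEAT1, HOXB9, MYO1D, HIST2H2BE, KRCC1, BEX2, HLA-B and MGAT5, and the difference of each of these 10 was called in all 28 alternatives. PMEPA1 (chr20:57648392-57711536, GRCh38), a membrane protein induced by TGF-beta that restrains its signalling, had 35.4, 77.9 and 131 CPM in HCT116 shSETDB1 cells against 16.7, 13.4 and 13.6 CPM in unsorted cells. In SW480 it had 116, 138 and 197 CPM in shSETDB1 cells against 304, 259 and 281 CPM in unsorted cells. The arms did not overlap in either line and lay on opposite sides, with responses of 2.53 ± 0.34 (adjusted p = 4.1e-05) and -0.96 ± 0.29 (adjusted p = 0.075) and a difference of 3.49 ± 0.44 (adjusted p = 0.00031, edgeR).

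NEAT1, the long noncoding RNA that scaffolds paraspeckles, had 544, 636 and 775 CPM in HCT116 shSETDB1 cells against 327, 300.1 and 241 CPM, and 947, 1088 and 1391 CPM in SW480 shSETDB1 cells against 1712, 2384 and 2209.8 CPM. It was called in both lines in opposite directions, 1.14 ± 0.20 and -0.90 ± 0.18, and the SW480 call was lost without SW480 unsorted replicate 2 or 3. HOXB9, a homeobox transcription factor, had 162, 220.2 and 369 CPM in HCT116 shSETDB1 cells against 23.4, 36.6 and 54.5 CPM, and 134, 205 and 294 CPM in SW480 shSETDB1 cells against 458, 230.0 and 316 CPM. In the shSETDB1 libraries the ranges of the lines overlapped, whereas all 3 unsorted SW480 libraries lay above all 3 unsorted HCT116 libraries. Of the 89 genes with a called difference, 50 (56.2%) had a smaller gap between the lines in shSETDB1 than in unsorted cells. Over all genes tested the share was 51.2%. The median gap on the log2(CPM + 1) scale was 1.12 in shSETDB1 and 1.79 in unsorted cells for the 89, and 0.75 in each arm over all genes. The interaction test compares the gap between the lines in shSETDB1 with that in unsorted cells. The 89 were therefore chosen on these values, and their gaps cannot show whether the lines came closer. The response of HOXB9 was 2.68 ± 0.38 in HCT116 and -0.66 ± 0.32 in SW480, where it was not called.

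MYO1D, an unconventional myosin, had 127, 177 and 322 CPM in HCT116 shSETDB1 cells against 27.7, 69.1 and 40.7 CPM, and 163, 278 and 329 CPM in SW480 shSETDB1 cells against 461, 389 and 571 CPM. It had responses of 2.16 ± 0.34 in HCT116 and -0.82 ± 0.30 in SW480, and BEX2, an X-linked adaptor protein, of 1.83 ± 0.34 and -1.0 ± 0.31. KRCC1 had responses of 2.69 ± 0.41 and -0.72 ± 0.35. The HCT116 values of these 3 genes were called and the SW480 values were not, although all 6 SW480 shSETDB1 libraries lay below the unsorted ones for MYO1D and KRCC1. MGAT5, which adds a branch to N-glycans, had 66.5, 76.3 and 102 CPM in HCT116 shSETDB1 cells against 69.1, 78.1 and 76.2 CPM, and 91.7, 176 and 243 CPM in SW480 shSETDB1 cells against 653, 696 and 874 CPM. Its HCT116 libraries overlapped between the arms, and its SW480 libraries did not, with a response of -2.07 ± 0.24 (adjusted p = 1.2e-05).

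APOL6 and HIST2H2BE were close to absent from unsorted HCT116 cells. APOL6, an interferon-inducible apolipoprotein L that has close relatives, had 9.4, 19 and 24.6 CPM in HCT116 shSETDB1 cells against 0, 0 and 0.207 CPM in unsorted cells, and 28.7, 67.7 and 103 CPM in SW480 shSETDB1 cells against 48.8, 29.2 and 49.6 CPM. HIST2H2BE, a histone H2B gene with polyadenylated transcripts, had 10.4, 19.4 and 44.7 CPM against 0, 0.141 and 0.207 CPM in HCT116, and 5.49, 45.1 and 52 CPM against 44, 38.1 and 35.6 CPM in SW480. The arms overlapped in SW480 for both genes. With 1 and 2 reads in the unsorted HCT116 libraries, the pooled ratios were 328 (58.9 to 12966) and 209 (57.8 to 1725) with their 95% counting intervals, so the fitted differences of 7.38 and 7.48 depend on the prior count.

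HLA-B, a heavy chain of the class I complex that presents peptides to T cells, had 386, 517 and 721 CPM in HCT116 shSETDB1 cells against 118, 112 and 155 CPM in unsorted cells. Its HCT116 KRTnega libraries had 403, 386 and 396 CPM and its HCT116 KRTplus libraries 721, 636 and 631 CPM. In SW480 it had 119.7, 172 and 256 CPM in shSETDB1 cells against 195, 209 and 270.3 CPM in unsorted cells. The HCT116 arms did not overlap, the SW480 arms did, and the responses were 2.04 ± 0.29 and -0.31 ± 0.26 with a difference of 2.35 ± 0.38 (adjusted p = 0.002). B2M, the light chain of the same complex and chosen after its values were seen, had responses of 2.15 ± 0.24 in HCT116 (adjusted p = 2.9e-06) and of 0.54 ± 0.22 in SW480 (adjusted p = 0.21), a difference of 1.61 ± 0.30 (adjusted p = 0.0073). Tags may be shared between class I genes, and how the authors assigned such tags is not given in the sources used here. The B2M promoter holds the interferon-stimulated response element, GAAA and GAAA with 2 bases of any kind between them, as a pair of overlapping matches, a motif in 2 of the 20 promoters found for the 42 genes, in 2.41% of the promoters of tested genes and in 3.02% of all promoters.
B2M (chr15:44711267-44711516, plus strand, RefSeq on GRCh38.p14): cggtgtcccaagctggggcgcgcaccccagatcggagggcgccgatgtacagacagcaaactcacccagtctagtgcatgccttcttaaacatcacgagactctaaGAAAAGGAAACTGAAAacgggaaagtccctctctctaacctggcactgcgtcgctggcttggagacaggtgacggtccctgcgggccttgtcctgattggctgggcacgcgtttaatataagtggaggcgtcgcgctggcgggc

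Leading the genes with a lower response in HCT116 were NR2F1, FSCN1, PON2, FABP5, GGH, GNG11, PRR20E, ATP13A3, NR2F2 and RRM2, and 8 of these 10 differences were called in all 28 alternatives. NR2F1 (chr5:93583224-93594615, GRCh38), an orphan nuclear receptor also known as COUP-TF, had 41.5, 97.1 and 134 CPM in HCT116 shSETDB1 cells against 431, 406 and 306 CPM in unsorted cells. In SW480 it had 38.4, 46.9 and 84.2 CPM in shSETDB1 cells against 17.1, 31.9 and 20.4 CPM in unsorted cells. The arms did not overlap in either line and lay on opposite sides, -2.01 ± 0.31 and 1.30 ± 0.35, for a difference of -3.31 ± 0.48 (adjusted p = 0.00085), and the SW480 call was lost in 11 of 29 alternatives. Its relative NR2F2 had 34.1, 58.8 and 79.9 CPM against 239, 289 and 143 CPM in HCT116, a response of -1.91 ± 0.26. In SW480, NR2F2 had 114, 183 and 206 CPM against 153, 123 and 151 CPM, the arms overlapping, with a response of 0.32 ± 0.28 (adjusted p = 0.68).

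PON2, an intracellular lactonase of the paraoxonase family, had 39.7, 74.5 and 94.9 CPM in HCT116 shSETDB1 cells against 339, 302 and 224 CPM, and 98.9, 195 and 276 CPM in SW480 shSETDB1 cells against 127, 113 and 86 CPM. It fell by 4.07-fold in HCT116, and its SW480 response of 0.80 ± 0.31 was not called. FSCN1, the actin-bundling protein fascin, had 121, 136 and 206 CPM against 389.8, 380.5 and 487 CPM in HCT116, and 46.2, 104 and 149 CPM against 47.4, 34.7 and 36.7 CPM in SW480. The HCT116 arms did not overlap, 5 of the 6 SW480 shSETDB1 libraries lay above the 3 unsorted ones, and the responses of -1.51 ± 0.27 and 1.32 ± 0.30 were both called, the second lost in 4 of 29 alternatives. FABP5, a fatty acid binding protein of epithelia, had 61.7, 108 and 121 CPM against 163, 169 and 138 CPM in HCT116, and 112, 143 and 185 CPM against 47.4, 33.4 and 49.4 CPM in SW480. It rose by 3.36-fold in SW480 (adjusted p = 0.0015), and its HCT116 response of -0.69 ± 0.27 was not called although the arms did not overlap.

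GGH, which removes glutamates from folates, changed by -1.22 ± 0.27 in HCT116 and 1.19 ± 0.29 in SW480, and ATP13A3, a transporter of polyamines, by -1.10 ± 0.28 and 1.28 ± 0.30. Each was called in both lines in opposite directions, and leaving out any 1 of the 3 unsorted SW480 libraries ended both SW480 calls. ATP13A3 lost its HCT116 call in 3 of 29 alternatives. RRM2, the regulated subunit of ribonucleotide reductase, had 38.3, 43 and 66.8 CPM in HCT116 shSETDB1 cells against 285, 257 and 280.1 CPM, and 153, 174 and 220.1 CPM in SW480 shSETDB1 cells against 280.2, 321 and 274 CPM. All 12 shSETDB1 libraries lay below the unsorted libraries of their line, with a called fall of 5.65-fold in HCT116 and a response in SW480, -0.71 ± 0.22, that was not called (adjusted p = 0.089). The difference, -1.79 ± 0.32 (adjusted p = 0.0057), is one of size and not of sign.

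PRR20E and GNG11 were near 0 in HCT116. PRR20E had at most 0.413 CPM in any HCT116 library, and 43.2, 109 and 206 CPM in SW480 shSETDB1 cells against 1.85, 2.13 and 2.32 CPM in unsorted cells, a rise of 56.3-fold. By fraction, PRR20E had 206, 146 and 178 CPM in SW480 KRTnega and 71.8, 43.2 and 64.6 CPM in SW480 KRTplus libraries. PRR20A, PRR20C and PRR20D, copies that may share its tags, had responses of 6.27 ± 0.77, 6.28 ± 0.70 and 6.07 ± 0.62 in SW480, and their differences were not called, so the copies count as 1 uncertain result. GNG11, a G protein gamma subunit, had 1 read in all HCT116 shSETDB1 libraries against 9 in the unsorted ones, and 65, 125 and 212 CPM in SW480 shSETDB1 cells against 21.6, 20.7 and 9.73 CPM, a rise of 7.57-fold. Its SW480 KRTnega libraries had 212, 196 and 156 CPM and its SW480 KRTplus libraries 65, 65.6 and 92.9 CPM. Both differences were lost with KRTplus libraries alone and without HCT116 unsorted replicate 3, and the SW480 call of GNG11 with KRTplus libraries alone and without SW480 unsorted replicate 3.

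**Figure D4:**
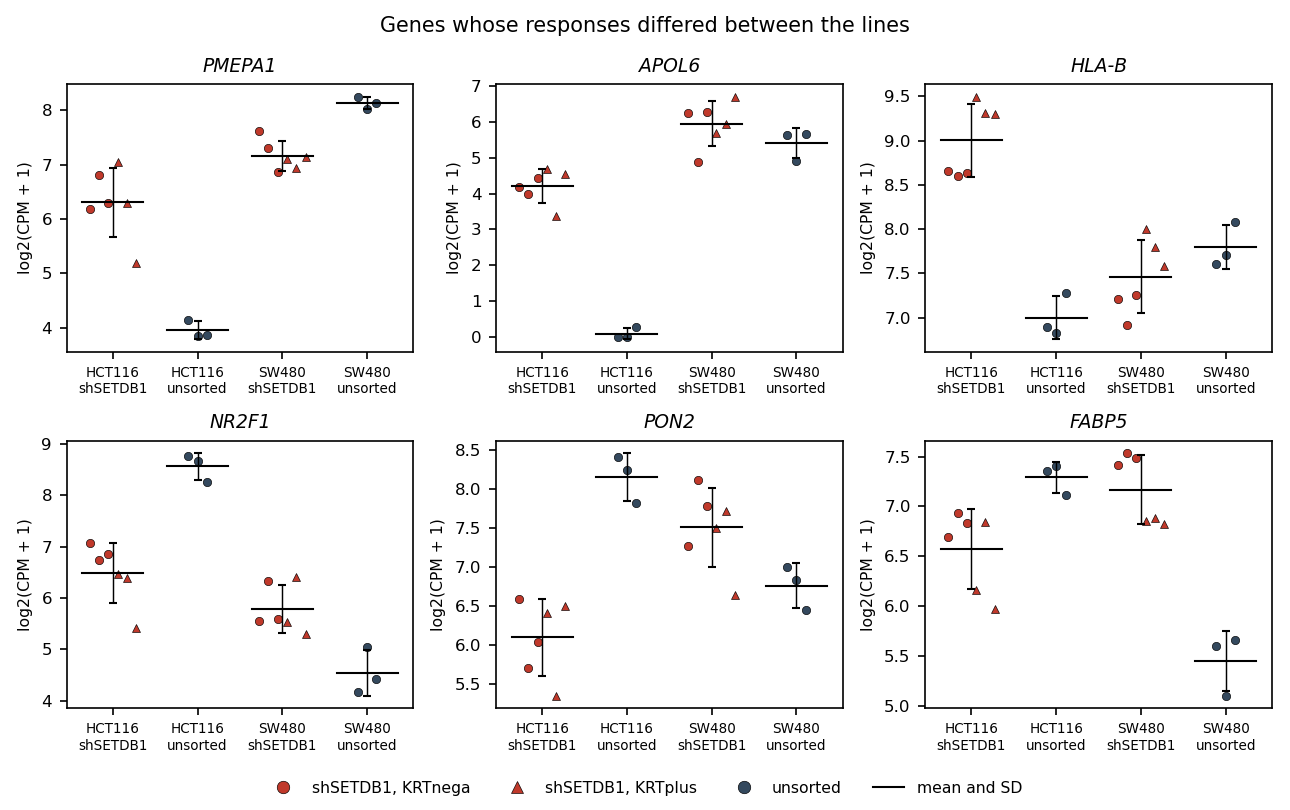
Level in each library, as log2(CPM + 1), of 3 genes with a higher response in HCT116 (PMEPA1, APOL6 and HLA-B) and 3 with a lower one (NR2F1, PON2 and FABP5), by line and arm, circles for KRTnega and unsorted, triangles for KRTplus, with mean and SD as lines. For PMEPA1, NR2F1 and FABP5 the arms of a line do not overlap and lie in the opposite order in HCT116 and SW480.

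The genes of largest change in a single line were mostly near 0 in 1 arm. In HCT116, CEACAM1, an adhesion molecule of the colonic surface whose family members share sequence, had 1.7, 11.8 and 23.1 CPM in shSETDB1 cells and no read in unsorted cells, and was at least 76.3-fold higher. NRM, an inner nuclear membrane protein, had no read in the 6 HCT116 shSETDB1 libraries against 6.53, 26.3 and 4.13 CPM in unsorted cells, at least 237-fold lower, and 0.784, 9.08 and 28.5 CPM in SW480 shSETDB1 cells against 9.57, 10.1 and 15.8 CPM, where the arms overlapped. The difference of NRM was called (adjusted p = 0.048) and lost in 19 of 28 alternatives. PLK1, a mitotic kinase, had 1, 4.97 and 16.9 CPM in HCT116 shSETDB1 cells against 73.4, 71.2 and 81.8 CPM. Of the 10 genes named per direction in HCT116, 3 higher (CEACAM1, APOL6 and HIST2H2BE) and 3 lower (NRM, CCNB1 and PLK1) kept their HCT116 call in every alternative. The other 14 lost it in at least 1, such as DHRS9 in 16 of 28 and TSPAN8 in 3 of 29.

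Among the leading genes of SW480, MMP19, a matrix metalloproteinase, had 0.101, 2.96 and 13.5 CPM in HCT116 shSETDB1 cells against 0, 0.141 and 1.03 CPM. The SW480 shSETDB1 cells had 20.1, 51.1 and 82.3 CPM and the unsorted cells no read, so the level was at least 401-fold higher. The alpha-globin gene HBA2, which has a near-identical copy in HBA1, had 0, 0.159 and 4.2 CPM in HCT116 shSETDB1 cells against 0.159, 0 and 0.413 CPM, and 35.5, 44.8 and 79.5 CPM in SW480 shSETDB1 cells against 0, 0.118 and 0 CPM. The differences of MMP19 and HBA2 were not called (adjusted p = 0.11 and 0.18). ALDH1A3, which makes retinoic acid, had 22.2, 45.3 and 51.3 CPM in HCT116 shSETDB1 cells against 149, 133 and 61.6 CPM, and 2.15, 14.9 and 28.6 CPM in SW480 shSETDB1 cells against 162, 175 and 149 CPM. It lay below the unsorted libraries in all 12 shSETDB1 libraries and was called in SW480 only, and its difference of 2.06 ± 0.67 was not called (adjusted p = 0.19). MPZL2, an epithelial adhesion protein, had 13.7, 41.5 and 72.8 CPM in HCT116 shSETDB1 cells against 46.5, 21.1 and 35.3 CPM, and 26, 41.6 and 115 CPM in SW480 shSETDB1 cells against 582, 475 and 495 CPM. Its difference was called at 3.44 ± 0.67 (adjusted p = 0.012) and was lost without HCT116 unsorted replicate 2. Of the 10 genes named per direction in SW480, 2 higher and 5 lower kept their call in every alternative.

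For most lists of genes by function more members were called in HCT116 than in SW480, as over all genes (5.47% and 2.63% called), and the difference was called for 0.599% of all genes. By direction, 2.32% of all genes were called higher and 3.14% lower in HCT116, and 1.54% higher and 1.08% lower in SW480. Mitosis and G2M genes were called lower and never higher: 23 of 34 tested members were called lower and 0 higher in HCT116 (median -2.17, against 0.09 over all genes), and 4 lower and 0 higher in SW480 (median -1.0, against 0.09 over all genes). The difference was called for 1 member, CDC20, an activator of the anaphase-promoting complex, which had responses of -1.95 in HCT116 and 0.12 in SW480. The 4 called in both lines were CCNB1, CDK1, TOP2A and UBE2C, and the SW480 count was 1 without SW480 unsorted replicate 2 and 2 without replicate 3. TOP2A, the topoisomerase of dividing cells, had 184, 286 and 340.1 CPM in HCT116 shSETDB1 cells against 1604, 1481 and 1222 CPM, and 548, 979.8 and 1537 CPM in SW480 shSETDB1 cells against 2058, 3119.9 and 2197 CPM. BIRC5, the apoptosis inhibitor survivin of the mitotic spindle, had 12.2, 40.3 and 51.3 CPM against 246, 241 and 287 CPM in HCT116, and 40.7, 73.2 and 107 CPM against 184, 148 and 135 CPM in SW480. For both genes all 12 shSETDB1 libraries lay below the unsorted libraries of their line, BIRC5 was not called in SW480 (adjusted p = 0.1), and the SW480 call of TOP2A was lost without SW480 unsorted replicate 2. In bulk RNA, fewer cells of a kind and less RNA per cell cannot be told apart.

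The calls among DNA replication and S phase genes were lower too, with 17 of 44 tested members called lower in HCT116 (median -1.48) and 5 in SW480 (median -0.71), and 0 higher in either. The shares of all genes called lower were 3.14% in HCT116 and 1.08% in SW480. The SW480 calls included FEN1, MCM2, MCM3 and TYMS, which were also called in HCT116. The SW480 count was 3, 3 or 2 without SW480 unsorted replicate 1, 2 or 3. The difference was called for RRM2 and for MCM4, another helicase subunit, which had 25.5, 35.7 and 68.4 CPM in HCT116 shSETDB1 cells against 315, 262 and 180.1 CPM, and 158, 198 and 245 CPM in SW480 shSETDB1 cells against 327, 317 and 369 CPM. The MCM4 difference of -1.84 ± 0.40 (adjusted p = 0.03) was lost in 9 of 28 alternatives.

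ATF4 and unfolded protein response genes were called higher in 10 of 31 tested members in HCT116 (median 1.06) and in 3 in SW480 (median 0.21), where 1 was lower. The shares of all genes called higher were 2.32% in HCT116 and 1.54% in SW480, and 1.08% were called lower in SW480. DDIT3 and SESN2 were called higher in both lines, SESN2 losing its SW480 call in 3 of 29 alternatives. SESN2, a stress-induced inhibitor of mTORC1, had 144, 173 and 251 CPM in HCT116 shSETDB1 cells against 14.3, 31.7 and 53.5 CPM, and 39.1, 51.6 and 70.6 CPM in SW480 shSETDB1 cells against 24.2, 12.8 and 10.4 CPM. ASNS, asparagine synthetase, had 264, 385 and 838 CPM against 75.2, 54.9 and 128 CPM in HCT116, and 75.7, 185 and 330.3 CPM against 196, 114 and 154 CPM in SW480, where the arms overlapped. The ASNS difference of 2.18 ± 0.56 was not called (adjusted p = 0.072). PSAT1, of serine synthesis, was called higher in HCT116 (0.94 ± 0.25) and lower in SW480 (-0.87 ± 0.24), with a difference of 1.80 ± 0.35 (adjusted p = 0.0093) that was lost with KRTplus libraries alone. The PSAT1 calls were lost in 6 of 29 alternatives in HCT116 and 20 of 29 in SW480. The HCT116 count was 4 without HCT116 unsorted replicate 1 and 5 without replicate 2, and the SW480 count was 1 without SW480 unsorted replicate 2 or 3.

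p53 target genes were called higher in 8 of 30 tested members in HCT116 (median 0.53) and in 2 in SW480 (median 0.01), and 0 were lower, beside 2.32% and 1.54% of all genes called higher. The HCT116 calls were BBC3, CDKN1A, GADD45A, GDF15, RRM2B, SESN2, TNFRSF10B and ZMAT3, and the SW480 calls were PLK2 and SESN2. GADD45A, a stress-induced cell cycle inhibitor, had 310.3, 368 and 462 CPM in HCT116 shSETDB1 cells against 96.6, 79.2 and 68.2 CPM, and 149, 198 and 381 CPM in SW480 shSETDB1 cells against 101, 145 and 124 CPM. All 12 shSETDB1 libraries lay above the unsorted libraries of their line, the SW480 response was not called (adjusted p = 0.077), and the difference of 1.33 ± 0.36 was not called (adjusted p = 0.095). TNFRSF10B, a death receptor for TRAIL, had 187, 229.7 and 276 CPM against 84.7, 60.1 and 62.4 CPM in HCT116, and 40.3, 75.5 and 98.1 CPM against 61.1, 73.6 and 85.8 CPM in SW480. It was the only member with a called difference, 1.72 ± 0.38 (adjusted p = 0.029), lost in 6 of 28 alternatives. CDKN1A, the CDK inhibitor p21, had responses of 1.14 ± 0.25 in HCT116, a call lost without HCT116 unsorted replicate 1, and of 0.27 ± 0.24 in SW480, not called. The HCT116 count of the list was 5 without HCT116 unsorted replicate 1.

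The differentiation medium of the protocol activates VDR and PPARG, and over all genes 2.32% were called higher in HCT116 and 1.54% in SW480. For VDR, 6 of 22 tested targets were called higher in HCT116 (median 1.21) and 0 in SW480 (median 0.73), and 0 were lower. TRPV6, the calcium channel of intestinal uptake, had 5.75, 30.1 and 75.3 CPM in HCT116 shSETDB1 cells against 0, 0.281 and 1.03 CPM, and 21.4, 110.2 and 161 CPM in SW480 shSETDB1 cells against 83.2, 51.3 and 48 CPM. Its arms overlapped in SW480 only, and its difference of 5.62 ± 1.28 (adjusted p = 0.048) was lost in 16 of 28 alternatives. CYP24A1, which degrades active vitamin D, was called in HCT116 (4.22 ± 0.97, mean CPM 234 in shSETDB1 and 12.6 in unsorted cells) and not in SW480 (1.82 ± 0.83, mean CPM 405 in shSETDB1 and 114 in unsorted cells), and its difference was not called (adjusted p = 0.45). SERPINB1, a protease inhibitor, had 273, 348 and 463 CPM against 69.9, 59.9 and 124 CPM in HCT116, and 74.9, 139.6 and 195 CPM against 149, 96.9 and 78.7 CPM in SW480. The HCT116 count was 2 without HCT116 unsorted replicate 1.

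For PPAR, 6 of 29 tested targets were called higher and 1 lower in HCT116 (median 0.85), and 3 higher and 0 lower in SW480 (median 1.09). FABP4 and SLC25A20 were among those called higher in both lines. SLC25A20, the mitochondrial carnitine carrier, had 53.8, 86.3 and 107 CPM in HCT116 shSETDB1 cells against 25, 14.6 and 26.9 CPM, and 77.4, 110.2 and 167 CPM in SW480 shSETDB1 cells against 37, 40.7 and 44.8 CPM. PLIN2, a coat protein of lipid droplets, had 397, 743 and 1466 CPM against 104, 107 and 163 CPM in HCT116, and 859, 999 and 1382 CPM against 839.9, 600.0 and 652 CPM in SW480. All 12 shSETDB1 libraries of both genes lay above the unsorted ones. The SW480 call of SLC25A20 was lost in 4 of 29 alternatives, and the PLIN2 difference of 2.12 ± 0.47 (adjusted p = 0.031) was lost in 10 of 28 alternatives. ANGPTL4, a lipase inhibitor, had 79.2, 329.7 and 821 CPM against 13.1, 17.2 and 24.4 CPM in HCT116, and 339.7, 403 and 583 CPM against 113, 11 and 73.6 CPM in SW480, where it was not called (adjusted p = 0.07). The SW480 count was 1 without SW480 unsorted replicate 3, 5 without HCT116 KRTnega replicate 2 or KRTplus replicate 3, and 9 with DESeq2.

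Hypoxia and glycolysis genes were called lower in 11 of 30 tested members and higher in 2 in HCT116 (median -0.87), and lower in 1 and higher in 2 in SW480 (median -0.09). The shares of all genes were 3.14% lower and 2.32% higher in HCT116, and 1.08% lower and 1.54% higher in SW480. SLC2A1, the glucose transporter GLUT1, was lower in both lines, with 32.6, 41 and 58.7 CPM in HCT116 shSETDB1 cells against 192, 215 and 207 CPM, and 130.1, 242 and 307 CPM in SW480 shSETDB1 cells against 521, 454 and 445 CPM. Its SW480 call was lost in 3 of 29 alternatives. GAPDH, a glycolytic enzyme, had responses of -1.10 ± 0.27 in HCT116 and 0.62 ± 0.28 in SW480, the only called difference of the list (adjusted p = 0.035). VEGFA and P4HA1 were the higher ones in HCT116, and ADM and HK2 in SW480. Of 69 tested oxidative phosphorylation genes, 11 were called lower in HCT116 (median -0.47) and 1 in SW480 (median -0.21), ATP5G2, an ATP synthase subunit, in both. The SW480 count of this list is near the 1.08% of all genes called lower. The difference was called for COX7C, a cytochrome oxidase subunit, at -1.24 ± 0.28. The HCT116 count was 7, 5 or 4 without HCT116 unsorted replicate 1, 2 or 3, 7 without KRTplus replicate 3 and 4 without the 3 libraries that SETDB1 sets against their label.

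Immediate early and heat shock genes were called lower in 9 of 36 tested members in HCT116 (median -0.34) and in 4 in SW480 (median -0.28), where 1 was higher. The shares of all genes called lower were 3.14% in HCT116 and 1.08% in SW480, and 1.54% were called higher in SW480. FOS and IER3 were called lower in both. HSPD1, the mitochondrial chaperonin, had 304, 504 and 588 CPM in HCT116 shSETDB1 cells against 1642, 1782 and 1699 CPM, and 654, 787 and 849 CPM in SW480 shSETDB1 cells against 1087, 1133 and 955 CPM. The arms did not overlap in either line, and the difference of -1.38 ± 0.29 (adjusted p = 0.022) was lost in 5 of 28 alternatives. The HCT116 count was 5 without HCT116 unsorted replicate 3, and the SW480 count was 1 without any 1 of the SW480 unsorted libraries and 2 without KRTnega replicate 2.

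**Figure D5:**
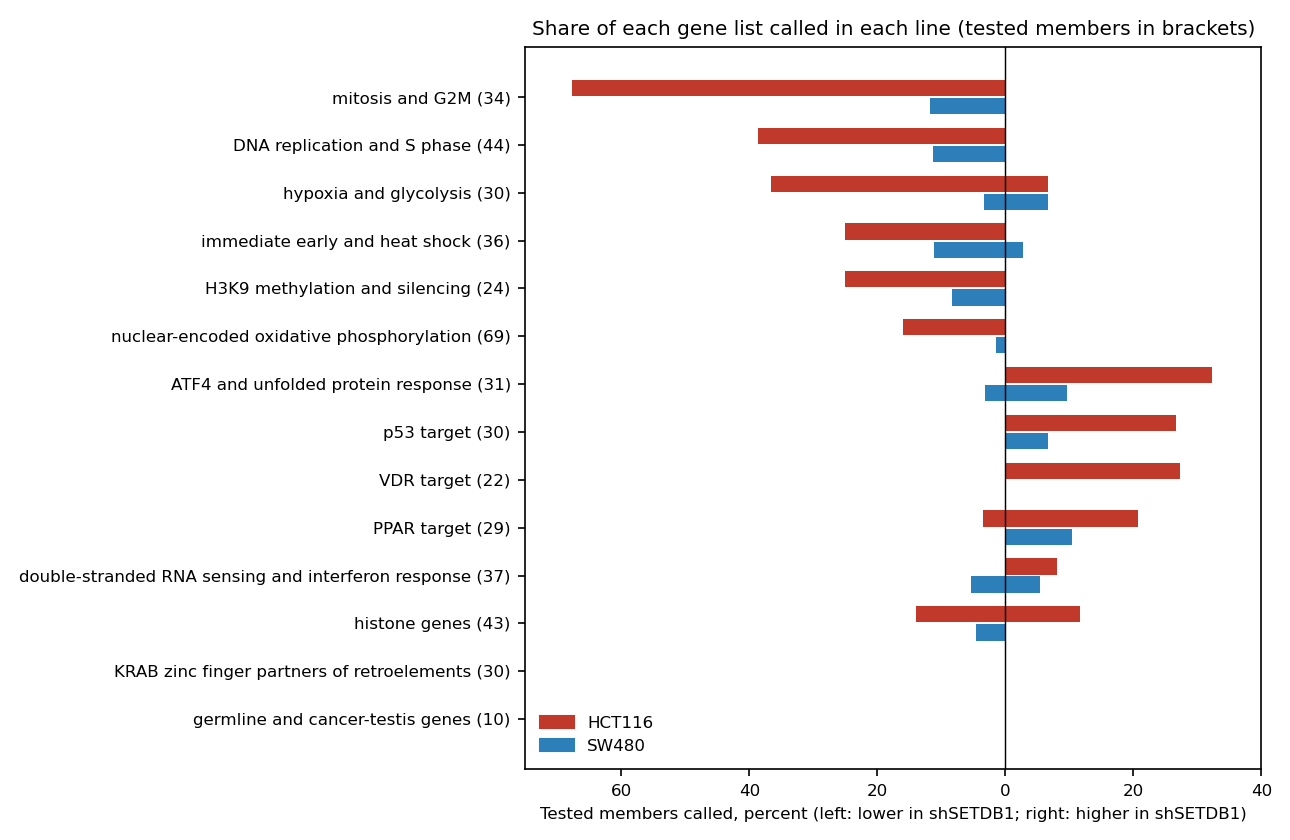
Percent of the tested members of 14 gene lists called lower (bars to the left) or higher (bars to the right) in shSETDB1 cells, HCT116 in red above SW480 in blue. Mitosis, replication and glycolysis genes reach farthest to the left in HCT116, and the KRAB zinc finger and germline lists have no bar in either line.

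Genes of the silencing pathway were called lower or not at all, and none of the tested germline genes was called. Of 24 tested H3K9 methylation and silencing genes, 6 were called lower in HCT116 (median -0.45) and 2 in SW480 (median -0.41), and 0 higher. The shares of all genes were 2.32% higher and 3.14% lower in HCT116, and 1.54% higher and 1.08% lower in SW480. DNMT1, the maintenance DNA methyltransferase, had 200.5, 227 and 278 CPM in HCT116 shSETDB1 cells against 632, 577 and 545 CPM, and 119, 168 and 261 CPM in SW480 shSETDB1 cells against 327, 281 and 353 CPM. HELLS, a chromatin remodeller of DNA methylation, was also called in both (-1.29 ± 0.38 and -1.54 ± 0.38). DNMT1 lost its SW480 call in 13 of 29 alternatives, and HELLS its HCT116 call in 9 of 29 and its SW480 call in 5 of 29. TRIM28 had responses of -1.47 ± 0.35 in HCT116 and -0.53 ± 0.36 in SW480, the first lost in 2 of 29 alternatives and the second not called. The HCT116 count was 2 without HCT116 unsorted replicate 2 and 3 without KRTplus replicate 3. None of 30 tested KRAB zinc finger partners of retroelements was called in either line, with medians of 0.26 in HCT116 and 0.93 in SW480. Of 37 germline genes 10 were tested and 0 called, with medians of -0.08 in HCT116 and 1.98 in SW480. Of 52 clustered protocadherins 6 were tested and 0 called, with medians of 6.41 in HCT116 and -0.95 in SW480. The median over all genes was 0.09 in each line. With 10 and 6 tested members, 0 calls cannot show that these lists were unchanged. Among 420 tested ZNF genes, 1 was called higher and 2 lower in HCT116 (median 0.21), and 1 higher and 0 lower in SW480 (median 0.52), shares below those over all genes.

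Interferon-response and double-stranded RNA sensing genes were called in both directions in SW480. In HCT116 3 of 37 tested members were called higher and 0 lower (median 0.84), and in SW480 2 were called higher and 2 lower (median 0.17), beside 5.47% of all genes called in HCT116 and 2.63% in SW480. ISG15, a ubiquitin-like protein, had 323, 456 and 555 CPM in HCT116 shSETDB1 cells against 75.5, 161 and 145 CPM, and 87, 113 and 192 CPM in SW480 shSETDB1 cells against 140.1, 98.9 and 109 CPM. OAS1, which makes 2′,5′-oligoadenylate on sensing double-stranded RNA, had 7.12, 20.2 and 50.8 CPM against 0, 0.281 and 1.24 CPM in HCT116, and 61.1, 106 and 135 CPM against 10.2, 18.2 and 0 CPM in SW480. OAS1 did not overlap between the arms in either line, and its SW480 call was lost in 21 of 29 alternatives. OASL, a related protein without that activity, had 10.9, 14.7 and 41 CPM against 5.57, 6.05 and 5.99 CPM in HCT116, and 18.9, 27.8 and 36.9 CPM against 0.154, 0.355 and 0 CPM in SW480. Its difference of -5.60 ± 1.18 (adjusted p = 0.023) was lost in 5 of 28 alternatives. USP18 was called lower in SW480 (-7.44, adjusted p = 0.0089, edgeR), a call lost in 2 of 28 alternatives. IFI27, of the 10 leading genes lower in SW480, had at most 0.453 CPM in SW480 shSETDB1 cells against 12.8, 12.8 and 20 CPM. The IFI27 call was lost in 12 of 29 alternatives. BST2, the tetherin that holds virus particles on the cell, had a difference of 2.77 ± 0.65 (adjusted p = 0.048). With DESeq2 the HCT116 count was 7.

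The epithelial genes CDH1 and CLDN7 had a higher response in HCT116, and the Wnt inhibitor DKK1 a lower one. CDH1, the adhesion molecule E-cadherin, had 359.6, 520.2 and 607 CPM in HCT116 shSETDB1 cells against 69.9, 41.4 and 70 CPM, and 103, 172 and 301 CPM in SW480 shSETDB1 cells against 108, 101 and 99.6 CPM. The tight junction gene CLDN7 had mean levels in CPM of 784 in shSETDB1 and 84.5 in unsorted HCT116 cells and 263 in shSETDB1 and 227 in unsorted SW480 cells. Both were called in HCT116 and both differences were called, 2.12 ± 0.44 (adjusted p = 0.022) and 3.01 ± 0.54 (adjusted p = 0.0059), the first lost in 4 of 28 alternatives. They are 2 of the 10 tested epithelium markers, of which 3 were called higher and 1, KRT19, lower in HCT116 and 0 in SW480. The list as a whole did not rise, with 4 of 10 members above 0 in HCT116 (median -0.08) and 4 of 10 for the difference (median -0.11). Among 27 tested crypt stem cell and Wnt target genes, 0 were called higher and 3 lower in HCT116, and 1 higher and 2 lower in SW480. The shares of all genes were 2.32% higher and 3.14% lower in HCT116, and 1.54% higher and 1.08% lower in SW480. DKK1, a secreted Wnt inhibitor, had 29.9, 39.4 and 62.6 CPM in HCT116 shSETDB1 cells against 581, 325 and 402 CPM, and 2.87, 35.2 and 60.5 CPM in SW480 shSETDB1 cells against 1.85, 7.33 and 0 CPM. Its shSETDB1 levels overlapped between the lines, whereas every unsorted HCT116 library lay above every unsorted SW480 library, its HCT116 call was lost in 2 of 29 alternatives, and its difference of -6.63 ± 1.21 (adjusted p = 0.014) was lost in 3 of 28 alternatives. SP5, a transcription factor induced by Wnt signalling, had 0, 1.44 and 2.86 CPM against 11.8, 31 and 19.8 CPM in HCT116, and 31.1, 115 and 149 CPM against 300.4, 264 and 297 CPM in SW480. It lay below the unsorted libraries in all 12 shSETDB1 libraries and was called in HCT116 only, a call lost when each line was fitted on its own. APCDD1, an inhibitor at the Wnt receptor, was at 1.06 CPM or less in every HCT116 library and fell by 4.72-fold in SW480, a call lost without SW480 unsorted replicate 3.

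For the remaining lists the share of all genes called was 5.47% in HCT116 and 2.63% in SW480. Of 16 tested colonocyte genes, 3 were called higher and 1 lower in HCT116 and 1 higher and 1 lower in SW480, while none of 6 tested goblet cell genes was called. Of 10 tested enteroendocrine genes 1 was called lower in each line and 0 higher. The HCT116 call, CHGA, rests on 0 reads in shSETDB1 cells against 8 in unsorted cells and was lost without HCT116 unsorted replicate 3 (adjusted p = 0.43), and the SW480 call, SCG2, had 0, 0 and 0.112 CPM against 10.5, 1.3 and 0 CPM. The colonocyte genes higher in HCT116 were CEACAM1, CEACAM5 and CEACAM6, CEACAM5 losing its call in 14 of 29 alternatives, and their count was 1 without any 1 of the HCT116 unsorted libraries, HCT116 KRTnega replicate 2, HCT116 KRTplus replicate 2 or 3 or SW480 KRTplus replicate 1. Of 25 tested cholesterol synthesis genes, 1 was higher and 4 lower in HCT116 and 0 called in SW480, and the lower count was 2 without HCT116 KRTplus replicate 2 or unsorted replicate 2 or 3. EBP, a sterol isomerase, had 24.4, 37.7 and 49.8 CPM in HCT116 shSETDB1 cells against 93.6, 97.9 and 114 CPM, and 119, 211 and 263 CPM in SW480 shSETDB1 cells against 195, 99.6 and 136 CPM, and its difference of -1.90 ± 0.41 was called (adjusted p = 0.027) and lost in 7 of 28 alternatives. Of 30 tested genes of the mesenchymal and actin list, which also holds epithelial genes, 3 were higher (CDH1 and EPCAM among them) and 1 lower in HCT116 and 0 higher and 1 lower in SW480, with CNN2, an actin-binding calponin, called lower in both. CNN2 lost its HCT116 call in 18 of 29 alternatives and its SW480 call in 13 of 29, and EPCAM its HCT116 call in 4 of 29. Of 43 tested histone genes, 5 were higher and 6 lower in HCT116 and 0 higher and 2 lower in SW480, of 84 ribosomal protein genes 2 were lower in HCT116 and 0 called in SW480, and of 162 LINC genes 2 were higher in HCT116 and 0 called in SW480. Among histone genes, H2AFX, the variant marked at DNA breaks, was lower in both lines (-1.04 ± 0.30 and -1.69 ± 0.29), and its HCT116 call was lost in 13 of 29 alternatives. The histone counts in HCT116 were 3 higher without HCT116 unsorted replicate 1 or 3 and 3 lower without replicate 3.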

How the data were processed

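RNA of HCT116 and SW480 cells was read as 3′ tags with the Lexogen QuantSeq kit, per the labels' protocols. The authors deposited 1 table of raw counts per library, with 25737 lines of gene symbols, and the submitters' processing notes name Bowtie2, edgeR and the build hg19 (versions not given in the sources used here). How tags of near-identical genes were assigned and whether strand was used are not given there either, so paralogs, overlapping genes and antisense genes are uncertain. A 3′ tag count does not grow with transcript length.

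Lines that repeat a symbol (1561 lines of 286 symbols) were summed, leaving 24462 symbols. Library totals ranged from 5349737 to 10221854 counts, and floors and counting intervals (95%, exact) cover counting error only. The counts of 18 libraries in 4 groups (line by arm) were fitted once with edgeR 4.0.16 (R 4.3.3): filterByExpr, TMM factors, robust quasi-likelihood fit, contrasts for each line and for their difference, and Benjamini-Hochberg adjustment over the 14851 genes at 0.05. The fit was also run on simulated counts with known changes. These libraries were drawn independently with the spread of the fitted genes, without fractions or a replicate batch, so the run cannot address those. SETDB1 was also tested with an exact permutation test on log2(CPM + 1). A fitted fold change of a gene with few counts in 1 arm depends on the prior count, so bounds use a floor of 3 counts over the group.

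The members and lists were chosen with earlier results of these data known. Named genes were, at 10 CPM or more, the 10 called genes per direction of largest log2 fold change in each line and of smallest adjusted p in the difference, the 10 per direction called in both lines with the smallest larger adjusted p, and 4 members per list with the smallest p. Genes outside this rule (B2M, BST2, CDC20, CLDN7, COX7C, GAPDH, CYP24A1, the other PRR20 copies and members only listed) were chosen after their values were seen. Alternatives were RLE factors, library totals, no filter, DESeq2 1.42.0, each line alone, fractions as separate groups or 1 at a time, a replicate block, library GC class as a term, and leaving out each library. Leaving out the 3 shSETDB1 libraries whose SETDB1 level lay above the lowest unsorted library was added after seeing the data. GC class came from the trend of expression with GC content of GENCODE 29 transcripts. Gene positions are GENCODE 29 on GRCh38, matched by symbol, and promoters are RefSeq on GRCh38.p14, since an hg19 annotation was not used here. A few genes are not reported here.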

Additional observations from a re-analysis of the deposited data

Results flagged for a closer look

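In 7 of the 82 groups of 6 shSETDB1 libraries of a named gene, 1 library lay far from the other 5 (Dixon's test at the 95% level), where chance gives about 1 in 20. In SW480, KRTplus replicate 2 stood apart with 163 CPM of MYO1D, 5.49 CPM of HIST2H2BE and 114 CPM of NR2F2. In HCT116, KRTplus replicate 2 held the single read of GNG11 (0.0913 CPM), KRTplus replicate 3 had 0.913 CPM of FABP4, and KRTplus replicate 1 had 369 CPM of IRS2 and 32.7 CPM of TYMS. HCT116 KRTplus replicates 2 and 3 are also among the 3 libraries whose SETDB1 level goes against their label. The difference calls of MYO1D, HIST2H2BE and NR2F2 and both calls of FABP4 and IRS2 held in each alternative run.

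For 20 named genes the responses of the lines differed by the edgeR interaction test. The difference on the log2 scale, HCT116 minus SW480, was 3.49 for PMEPA1, 7.38 for APOL6, 2.05 for NEAT1, 3.34 for HOXB9, 2.98 for MYO1D, 7.48 for HIST2H2BE, 3.41 for KRCC1, 2.83 for BEX2, 2.35 for HLA-B and 2.16 for MGAT5. It was -3.31 for NR2F1, -2.83 for FSCN1, -2.83 for PON2, -2.44 for FABP5, -2.40 for GGH, -6.99 for GNG11, -7.31 for PRR20E, -2.38 for ATP13A3, -2.23 for NR2F2 and -1.79 for RRM2.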

How the results depend on the processing

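The counts of calls depended most on the unsorted libraries and on the tool. With DESeq2 the counts were 1274 in HCT116 (689 higher, 585 lower), 1020 in SW480 (719 and 301), 436 for the difference (176 and 260) and 274 called in the same direction in both lines (165 and 109). Fractions kept as separate groups gave 638 in SW480, 209 for the difference and 228 in both lines, library GC class as a term gave 630, 211 and 229, and KRTnega libraries alone gave 161 for the difference. Without the 3 libraries set against their label by SETDB1, an alternative added after seeing the data, HCT116 had 483 calls and the difference 53. Leaving out 1 library in turn gave 417 to 868 calls in HCT116, 156 to 416 in SW480, 41 to 120 for the difference and 51 to 126 in both lines. The SETDB1 level difference ranged from -3.54 to -2.34 in HCT116 and from -3.61 to -2.55 in SW480 over the same omissions, and at -3.61 (exact permutation p = 0.0357) it passed 0.05. That run left out the SW480 library of highest SETDB1 level, KRTnega replicate 1, and no other omission passed 0.05.

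The difference in SETDB1 response, -0.65 and not called, reversed to 1.24 with KRTplus libraries alone, 0.85 without SW480 KRTnega replicate 1 and 0.24 with a replicate block (range -1.34 to 0.85 over libraries left out), and the cause was not tested. The called responses and called differences of the genes named by the rule kept their sign in every alternative run. Correlations of same-numbered libraries ran from -0.03 to 0.11 in HCT116 and from 0.02 to 0.14 in SW480, where all were positive. The trend with GC content was negative in every SW480 library numbered 2 and positive in every other SW480 library. Low correlations cannot decide whether the numbers mark pairs, and a shared batch was not tested. The fit with a replicate block gave 746 calls in HCT116, 328 in SW480, 83 for the difference and 98 in both lines. Each line fitted on its own gives no test of the difference.

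Genes near 0 in 1 arm have fold changes that depend on the prior count. Total counts per library limit those genes, and 3 unsorted libraries per line limit the calls.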
